A study of Mus musculus with 18 samples.

Results

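Main population cells sorted from mouse thyroids that had undergone partial thyroidectomy (TMP) were compared with main population cells from glands that were not operated on (CMP). The comparison used the 6 arrays of these groups, of 18 in the series, chosen by their group labels and joined into 3 pairs by replicate number; each pair shared a slide. The other 12 arrays hold side population cells, the fraction that pumps out the dye Hoechst 33342, with surgery (TSP) and without it (CSP). All mice were C57BL/6 of both sexes. Thyroids were digested with collagenase and dispase 1, the freed cells were kept in culture for 2 days, and cells outside the verapamil-sensitive side population gate were collected as the main population. Controls and operated samples shared all of these steps, and only the surgery differed by label. The extent of the removal, the time since surgery, any sham operation and the number of animals per sample are not given in the sources used here.

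Each array was hybridised with Cy5-labelled RNA of the sorted cells and a Cy3-labelled RNA mixed from 10 tissues of Swiss Webster mice, with no dye swap. A level below is therefore log2 of Cy5 over Cy3, sample over reference, and a difference is TMP minus CMP on that log2 scale. The design text calls the samples biological replicates, but no label ties them to separate animals, so the p-values measure only the spread between these samples. A difference in bulk RNA cannot tell fewer cells of a type from less RNA per cell.

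The thyroid is built of follicles whose epithelial cells make thyroglobulin, take up iodide and iodinate it, and the surrounding tissue holds endothelial cells, fibroblasts and macrophages. Removing part of the gland lowers hormone output, and the pituitary answers with more thyroid-stimulating hormone, which acts on the cells that remain. Cells taken into culture also respond to dissociation, with immediate early and inflammatory genes.

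Tg and Pax8, defining genes of follicular cells, were high on all 6 arrays, as the tissue label says. The iodide transporter gene Slc5a5 lay lower, between 0.27 and 0.83. Tg, the thyroglobulin gene, had levels of 5.76, 6.67 and 5.04 in CMP 1 to 3 and 5.67, 6.91 and 5.56 in TMP 1 to 3. Pax8, a lineage transcription factor, lay between 2.76 and 4.08 on the 6 arrays. Both genes were far above the tissue reference on every array of both groups.

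The arrays of a pair resembled each other more than arrays of the same group did. Levels correlated across genes at 0.965 to 0.98 within a pair and at 0.838 to 0.948 across pairs. Array quality differed between pairs and also within them. In pairs 1 and 2 the TMP array had fewer spots well above background, and in pair 3 the CMP array had fewer. The part of array quality in the TMP minus CMP differences was not tested. The Cy5 background was 43 and 43 for CMP 1 and TMP 1, 42.5 and 43 in pair 2, and 92 and 75 in pair 3. The share of spots well above background was 72% and 65.5% in pair 1, 71.7% and 59.5% in pair 2, and 45.8% and 51.2% in pair 3. The number of arrays, 3 in each group, limits the precision of every value.

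Few genes differed beyond the spread of the paired differences. Of 18827 genes tested with a paired limma model, 8 rose after surgery (0.0425%) and 1 fell (0.00531%), together 0.0478%, at a Benjamini-Hochberg adjusted p under 0.05, while 1249 had an unadjusted p under 0.05. The genes that rose included 4 transcripts of the Dcpp family of secreted salivary proteins (BC005655, LOC671351, Dcpp1 and Dcpp2), the protease inhibitor gene Spink8, the iron-scavenging lipocalin Lcn2 and the itaconate-producing enzyme Irg1. The gene that fell was Fabp5, which encodes an intracellular fatty acid carrier. BC005655 and LOC671351 carry no standard symbol and were singled out after their values were seen.

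These calls depended on the pairing and on the normalization. Without the pair as a block the same 6 arrays gave 0 calls in limma and 59 genes at an unadjusted p under 0.05, and 0 genes were also called with median centring in place of loess (1118 at that p), with the scanner software's own signals (974) and with the authors' deposited log2 ratios (1173). Leaving out pair 1, 2 or 3 gave 53, 28 and 115 genes higher and 18, 4 and 141 lower, so each pair moved the count by more than 1.5 times.

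The Dcpp transcripts are read by 60-base probes that share part of their sequence, shown here because the 4 values may not be independent. The capitals mark the 14 bases that all 4 probes hold.
BC005655: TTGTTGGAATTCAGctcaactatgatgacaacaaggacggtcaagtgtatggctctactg
LOC671351: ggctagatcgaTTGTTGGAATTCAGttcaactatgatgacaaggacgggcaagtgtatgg
Dcpp1: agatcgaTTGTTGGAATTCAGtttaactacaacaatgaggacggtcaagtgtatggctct
Dcpp2: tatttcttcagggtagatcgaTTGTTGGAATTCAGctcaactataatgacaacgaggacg
Any 2 of these probes share an unbroken stretch of 16 to 23 bases, so which member of the family gave the signal is uncertain. The array design places the probe of BC005655 at chr17:22062329-22062382 and that of LOC671351 at chr17:22097921-22098962 in mouse build mm7, with no strand given. The array design gives no position for the probes of Dcpp1 and Dcpp2.

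None of the 4 Dcpp transcripts overlapped between the groups, as held for 2.68% of all genes with values on all 6 arrays. They are described because they were called on these arrays, so the separation gives no further support. BC005655 and LOC671351 had the smallest p of all calls. BC005655 had levels of -2.95, -3.12 and -2.44 in CMP 1 to 3 and of -1.33, -1.02 and -0.90 in TMP 1 to 3. Every operated array lay above every control array. The 3 paired differences were 1.63, 2.10 and 1.54, with a mean of 1.76 (SE 0.17, adjusted p = 0.000274 in limma). LOC671351 rose from -1.43, -0.81 and -1.08 to 0.55, 0.58 and 0.59, a mean difference of 1.68 (SE 0.17, adjusted p = 0.000274). Its TMP levels were nearly equal while its CMP levels spread over more than 0.5. Dcpp1 rose from -2.74, -2.70 and -2.71 to -1.66, -1.72 and -1.40, by 1.12 on average (SE 0.16, adjusted p = 0.0115). Dcpp2 rose by 1.02, 0.95 and 1.29 in pairs 1 to 3 (mean 1.09, SE 0.16, adjusted p = 0.014). All 4 probes were well above background on every array of the 6 except CMP 3.

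Other genes of salivary glands were examined beside the Dcpp family. In a list of salivary genes written after the Dcpp values were seen, 15 of 18 genes were measured. The 4 called were the Dcpp transcripts (0.0425% of all genes were called higher), and the median over the list was 0.10. Amy1, the salivary amylase, had paired differences of 0.18, 0.25 and -0.09 with levels between -5.48 and -4.32. Smgc, a submandibular gland mucin-like protein, had differences of 0.36, 0.03 and -0.09. The glandular kallikreins, serine proteases that are abundant in the mouse submandibular gland, formed a further list chosen after values were seen. Of its 10 measured members 8 were higher in all 3 pairs (15.8% of all genes were) and 0 were called in limma. At an unadjusted p under 0.05 in limma, 6 were higher (3.64% of all genes were). The median difference of the kallikrein list was 0.69, 0.34 and 0.27 in pairs 1 to 3. Klk1b9 had the lowest adjusted p among them, with differences of 1.24, 1.08 and 0.51 (mean 0.94, SE 0.17, adjusted p = 0.0818). The longest stretch shared by any pair of their probes was 17 bases, and whether a probe also reads related members was not tested. The part of salivary tissue in the Dcpp and kallikrein values was not tested.

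Spink8, Lcn2 and Fabp5 were called genes with a secreted or carrier product. Spink8, a Kazal-type inhibitor of serine proteases with its probe at chr9:109517325-109523059 (mm7), had levels of 2.14, 1.41 and 2.51 in CMP 1 to 3 and of 3.79, 3.23 and 3.29 in TMP 1 to 3. The groups did not overlap, and the rise was 1.42 on average (SE 0.19, adjusted p = 0.00899). Lcn2, which binds bacterial iron carriers and is secreted by epithelial cells and neutrophils, had levels of -1.28, -1.58 and 0.07 against -0.77, 0.23 and 1.56. It rose by 0.51 in pair 1 and by 1.81 and 1.48 in pairs 2 and 3 (mean 1.27, SE 0.21, adjusted p = 0.0405), and its groups overlapped because the pairs differed in level. Fabp5 had levels of 0.87, 1.20 and 0.78 in CMP 1 to 3 and of -0.46, -0.07 and -0.25 in TMP 1 to 3. The groups did not overlap, and it fell by 1.33, 1.27 and 1.03 in the 3 pairs (mean -1.21, SE 0.16, adjusted p = 0.00727).

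Irg1, now named Acod1, makes itaconate in activated macrophages and had levels of -0.78, -0.62 and 0.04 in CMP 1 to 3 against 0.94 in TMP 1 and 0.01 in TMP 2, with the highest of the 6 levels in TMP 3. Its differences were 1.73, 0.63 and 1.06 (mean 1.14, SE 0.19, adjusted p = 0.0479), the weakest of the calls. Of the 9 called genes 6 had groups that did not overlap (2.68% of all genes with values on all 6 arrays). The calls were made on the same arrays, so this count describes them and gives no further support.

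**Figure D1:**
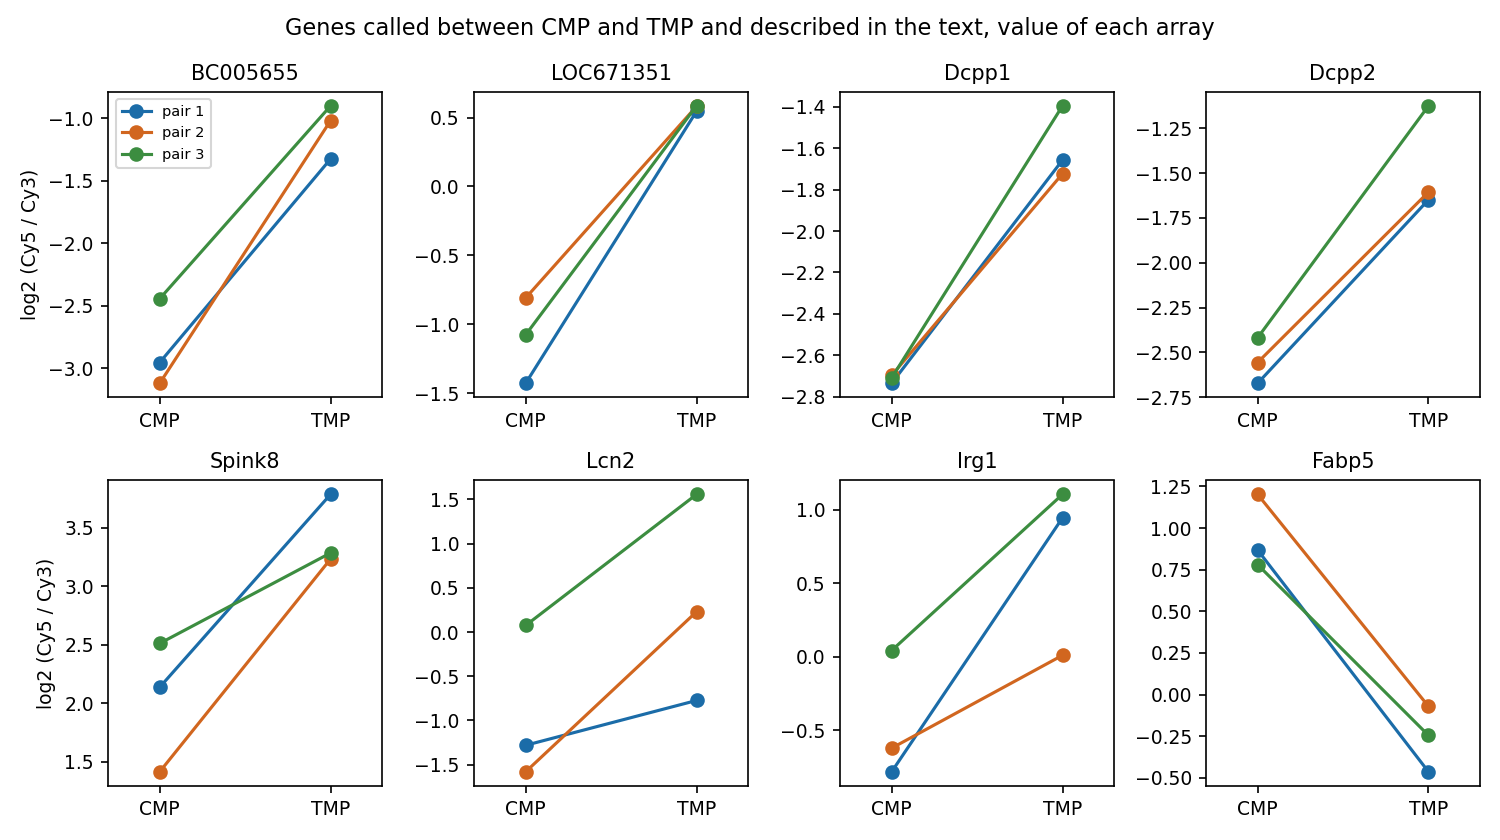
Level (log2 of Cy5 over Cy3) of each called gene described here on each of the 6 arrays, with a line joining the CMP and TMP array of a pair. Lines of Fabp5 run downward and those of all other panels run upward, and each panel has its own vertical scale.

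Agreement between the pairs was weak over the genome. With only 3 pairs, random signs also agree for many genes, so the shares with 1 sign do not by themselves show agreement. Of 18625 genes with values on all 6 arrays, 2940 were higher in all 3 pairs (15.8%) and 2043 were lower (11%). Only 22 were higher by at least 0.5 in every pair (0.118%) and 10 were lower by as much (0.0537%). At a difference of at least 1 in every pair, 2 genes were higher and 1 was lower. Across genes, the differences of pairs 1 and 2 correlated at 0.253, those of pairs 1 and 3 at -0.134 and those of pairs 2 and 3 at 0.0763. Genes share arrays, so these values are descriptions and carry no p.

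Most genes past a 2-fold difference in 1 pair were not past it in another. The counts are out of 18625 genes, of which few passed 2-fold in any pair. The overlap that unrelated pairs would give was not worked out, so the shared counts do not show a lack of agreement. Pair 1 had 81 genes higher and 176 lower by at least 2-fold, pair 2 had 54 and 45, and pair 3 had 104 and 28. Of the 81 genes higher in pair 1 and the 54 in pair 2, 12 were shared (14.8% and 22.2%). Pairs 1 and 3 shared 6 of the higher genes (7.41% and 5.77%), and pairs 2 and 3 shared 4 (7.41% and 3.85%). Of the lower genes, 4 were shared by pairs 1 and 2, and 1 each by pairs 1 and 3 and pairs 2 and 3. The spread of the differences over genes was widest in pair 1 (SD 0.38), then in pair 2 (0.32) and pair 3 (0.27).

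**Figure D2:**
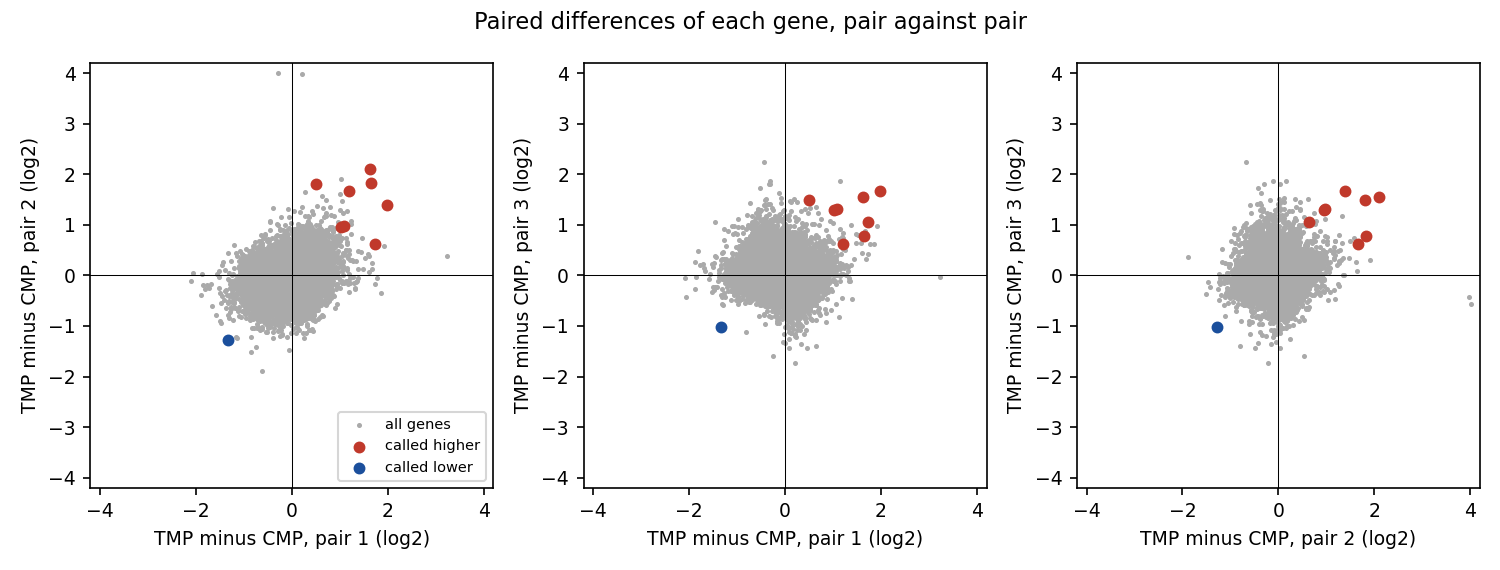
Difference (TMP minus CMP, log2) of each gene with values on all 6 arrays, 1 pair against another, with called genes enlarged. The cloud is elongated only slightly for pairs 1 and 2, and the called genes lie in the corner where both pairs agree.

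Beyond the calls, a selection of the genes with the largest difference common to all pairs is given with values. Other genes with a common difference as large or larger are not described. Gpnmb, a membrane glycoprotein of macrophages and pigment cells, was higher by 1.47, 0.73 and 0.83 (mean 1.01, adjusted p = 0.06). Pf4, a chemokine of platelets and macrophages, was higher by 1.92, 0.58 and 0.98 (adjusted p = 0.0818). Cebpd, a transcription factor of the acute phase response, was higher by 0.72, 1.49 and 0.67 (adjusted p = 0.0818), and Lbp, which binds bacterial lipopolysaccharide, by 0.64, 1.34 and 0.65 (adjusted p = 0.12). Both were largest in pair 2. Pdk4, a kinase that restrains glucose oxidation, was higher by 0.63, 1.57 and 0.74 (adjusted p = 0.0885). Among genes lower in all pairs, S100a7a, a calcium-binding protein of stressed epithelium, differed by -1.14, -1.23 and -0.48 (adjusted p = 0.0818). Pank3, which starts coenzyme A synthesis, differed by -0.83, -1.04 and -0.55 (adjusted p = 0.124). None of these 7 passed the test.

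Cholesterol synthesis was the list, of 30, with the largest share of members on 1 side in all pairs. Of the 24 measured genes for sterol and fatty acid synthesis, 18 were lower in all 3 pairs (11% of all genes were) and 1 was higher. None was called in limma, while 17 were lower and 1 was higher at an unadjusted p under 0.05, against 2.99% and 3.64% of all genes. The median difference was -0.47, -0.64 and -0.37 in pairs 1 to 3, where the medians of all genes were 0.08, -0.02 and -0.01. The lowest adjusted p of the group was 0.0885.

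Each sterol enzyme described here was lower in all 3 pairs, and none passed the test. Hmgcs1, which makes the first dedicated precursor, had levels of -0.02, 0.57 and -0.67 in CMP 1 to 3 and of -1.33, -0.68 and -0.95 in TMP 1 to 3 (mean difference -0.95, SE 0.20, adjusted p = 0.136). Its groups did not overlap. The isoprenoid steps followed the same direction: Idi1 differed by -0.96, -0.74 and -0.50 (adjusted p = 0.166) and Fdps by -0.49, -0.70 and -0.51 (adjusted p = 0.378). These Fdps values are of its brightest probe. Of the 2 Fdps probes that passed the filter, the other 1 had a mean difference above 0. Sqle, which oxidises squalene, had levels of 0.73, 0.71 and 0.20 against 0.11, -0.05 and -0.22, with no overlap (mean -0.60, adjusted p = 0.324). Of the late steps, Dhcr7, the last reductase before cholesterol, differed by -1.31, -0.84 and -0.56 (mean -0.90, SE 0.17, adjusted p = 0.0885), and Msmo1 by -0.85, -1.51 and -0.36 (adjusted p = 0.155). The list median was largest in size in pair 2 and smallest in pair 3.

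Of the other genes on the list, some were lower in all pairs and some were not. Srebf2, the transcription factor that drives sterol genes, differed by -0.60, -0.17 and -0.38 (adjusted p = 0.721), and Insig1, which holds that factor back when sterol is plentiful, by -0.39, -0.45 and -0.33 (adjusted p = 0.671). Srebf1, which drives fatty acid genes, had differences of -0.19, 0.31 and -0.01, and Acly, which supplies acetyl-CoA, had 0.20, 0.12 and -0.19. Scd1, which desaturates fatty acids, was higher by 1.13, 0.74 and 0.15 (adjusted p = 0.358). The other fatty acid genes of the list, Fasn, Acaca, Scd2 and Elovl6, which build, lengthen or desaturate fatty acids, had mean differences of -0.18, 0.09, -0.11 and -0.48, and of these Fasn alone was lower in all 3 pairs. Abca1, a cholesterol export pump counted with the ABC transporters, was higher by 0.22, 0.79 and 1.08 (adjusted p = 0.294). A further list of sterol pathway genes, chosen and shortened after values were seen, had 6 of 9 members lower in all pairs (11% of all genes were) and 0 called. Among them Pmvk, a kinase of the mevalonate branch, differed by -0.56, -0.94 and -0.52 (adjusted p = 0.237).

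**Figure D3:**
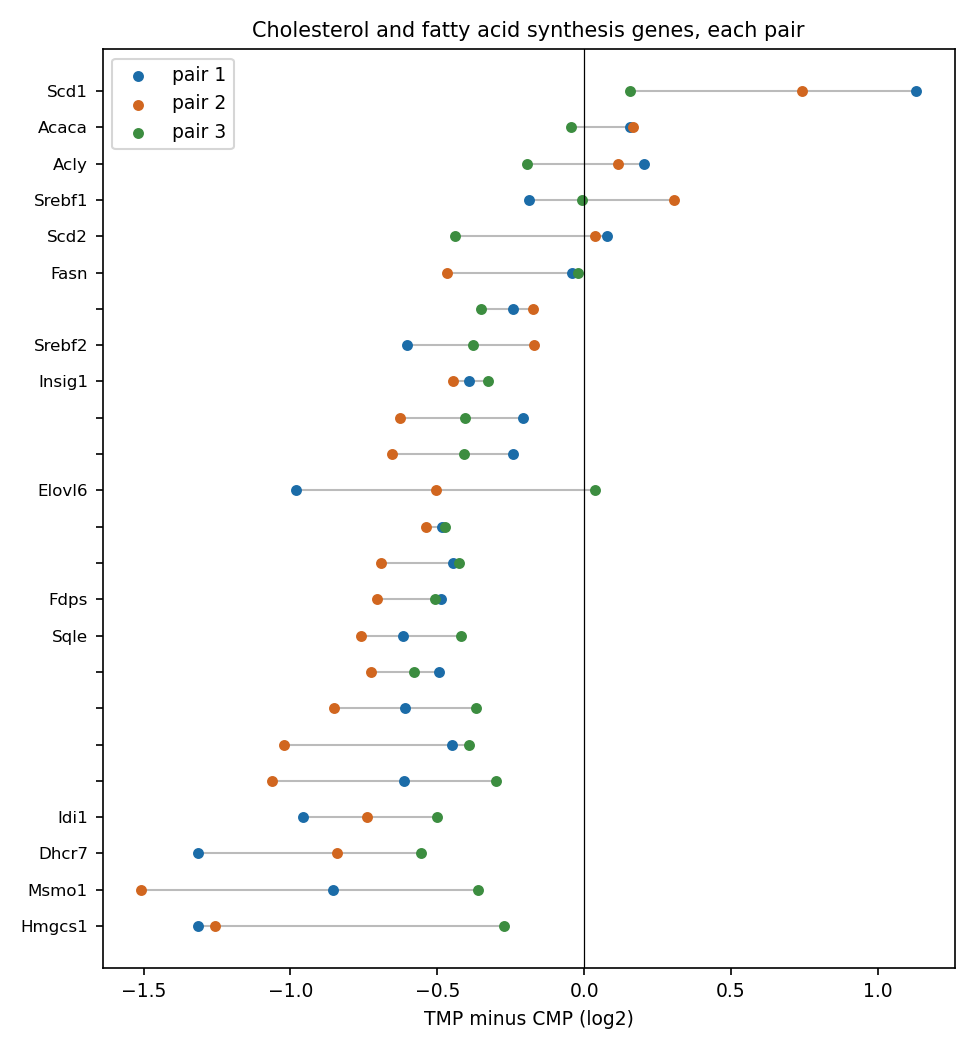
Difference (TMP minus CMP, log2) of each measured gene for cholesterol and fatty acid synthesis in the 3 pairs, ordered by the mean difference, with names only for genes given in the text. Points of the named sterol enzymes lie left of 0 in all pairs, and Scd1 at the top lies right of it.

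Sterol genes are known targets of SREBP factors, which bind a sterol regulatory element. The promoter of Hmgcs1 is shown because, of the list genes with a promoter window, it alone held a match to the pattern below. This gene also had the largest mean difference of the list. The capitals mark a match to TCACNCCAC, searched on both strands with N as any base, in the 250 bases before the RefSeq start site at chr13:119690101-119690350 (GRCm38.p6, plus strand).
Hmgcs1: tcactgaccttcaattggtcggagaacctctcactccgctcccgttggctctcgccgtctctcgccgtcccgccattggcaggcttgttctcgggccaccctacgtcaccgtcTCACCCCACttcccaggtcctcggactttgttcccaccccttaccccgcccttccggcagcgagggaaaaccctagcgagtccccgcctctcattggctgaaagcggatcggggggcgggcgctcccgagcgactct
The match starts 137 bases before the start site. Of 27025 genes with a RefSeq promoter window of 250 bases before and 50 after a start, 1.44% hold it. A window was found for 16 of the 24 list genes, and Hmgcs1 was the 1 of these 16 with a match. No match says only that these letters are not in the window, and a match is a description of the sequence only.

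The interferon response genes were higher in most pairs. Of the 20 measured, 13 were higher in all 3 pairs (15.8% of all genes were) and 0 were lower. None was called, and 8 were higher at an unadjusted p under 0.05 in limma (3.64% of all genes were). The median difference was 0.50, 0.65 and 0.19, smallest in pair 3. Ifit1, which binds foreign RNA, had levels of -0.50, -0.71 and -1.53 in CMP 1 to 3 and of 0.51, 0.58 and -1.03 in TMP 1 to 3 (mean difference 0.93, SE 0.18, adjusted p = 0.0818). Its groups overlapped through pair 3, where both arrays were low. Ifit3, from the same family, differed by 1.04, 1.47 and 0.34 (adjusted p = 0.132) and Mx2, an antiviral GTPase, by 0.79, 0.94 and 0.49 (adjusted p = 0.165). Irf7, the factor that amplifies interferon production, differed by 0.53, 1.38 and 0.02. Isg15, a ubiquitin-like protein of the same response, differed by -0.21, -0.08 and 0.23 and so stood apart.

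The promoter of Ifit1 is shown as an example of the element that interferon-activated factors bind. The capitals mark matches to GAAANNGAA, the repeated core of the interferon-stimulated response element, searched on both strands with N as any base, in the 250 bases before the start site at chr19:34640639-34640888 (GRCm38.p6, plus strand). Where 2 matches overlap, the capitals run on.
Ifit1: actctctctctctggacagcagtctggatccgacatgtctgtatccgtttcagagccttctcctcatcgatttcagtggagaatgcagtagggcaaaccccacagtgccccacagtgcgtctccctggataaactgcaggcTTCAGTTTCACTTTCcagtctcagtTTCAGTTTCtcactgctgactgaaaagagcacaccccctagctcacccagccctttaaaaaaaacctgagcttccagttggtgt
Of the same 27025 genes 9.76% hold this pattern. Windows were found for 15 of the 20 list genes, and 10 of these 15 hold it. The remaining list genes had no window, so these counts do not cover either list.

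Immediate early genes, which are switched on within minutes by growth factors or stress, were also mostly higher. Of 19 measured, 11 were higher in all 3 pairs (15.8% of all genes were), 0 were lower and 0 were called. At an unadjusted p under 0.05 in limma, 11 were higher (3.64% of all genes were). The medians were 0.56, 0.37 and 0.20. Fos had levels of 4.76, 4.02 and 2.80 in CMP 1 to 3 and of 5.73, 5.07 and 2.87 in TMP 1 to 3, so its difference was 0.96 and 1.05 in pairs 1 and 2 and 0.06 in pair 3 (adjusted p = 0.371). Jun, its partner in AP-1, differed by 0.72, 0.79 and 0.47 (adjusted p = 0.237), and the zinc finger factor Egr2 by 0.70, 1.17 and 0.48 (adjusted p = 0.165). Egr1 differed by 0.76, 0.92 and 0.14 (adjusted p = 0.417). The relatives Fosb, Fosl1, Junb and Jund had mean differences of -0.22, -0.04, -0.15 and -0.12, and Myc had 0.12. All 19 genes were well above background on all 6 arrays.

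Macrophage and pan-leukocyte genes differed by pair. Of 20 measured, 9 were higher in all 3 pairs (15.8% of all genes were), 0 were lower and 0 were called. At an unadjusted p under 0.05 in limma, 10 were higher (3.64% of all genes were). Their median difference was 0.85 in pair 1, 0.01 in pair 2 and 0.39 in pair 3, and 19, 11 and 17 of the 20 were higher. The mean level over the list was -2.48, -2.51 and -2.24 in CMP 1 to 3 and -1.65, -2.49 and -1.89 in TMP 1 to 3, and 16 of the 20 were well above background on all 6 arrays. Adgre1, a surface receptor of mature macrophages, had levels of -3.42, -2.81 and -2.94 against -1.74, -2.57 and -2.06 (mean difference 0.93, SE 0.21, adjusted p = 0.183). Its groups did not overlap, although pair 2 differed by only 0.25. Ctss, a lysosomal protease of antigen-presenting cells, differed by 1.19, 0.43 and 0.75 (adjusted p = 0.165) and Itgam, an integrin of myeloid cells, by 1.06, 0.38 and 0.37 (adjusted p = 0.417). Ptprc, the CD45 antigen of all leukocytes, differed by 0.93, 0.11 and 0.24, and Cd68 by -0.02, 0.55 and 0.08. The share of leukocyte RNA in the Irg1 values was not tested.

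**Figure D4:**
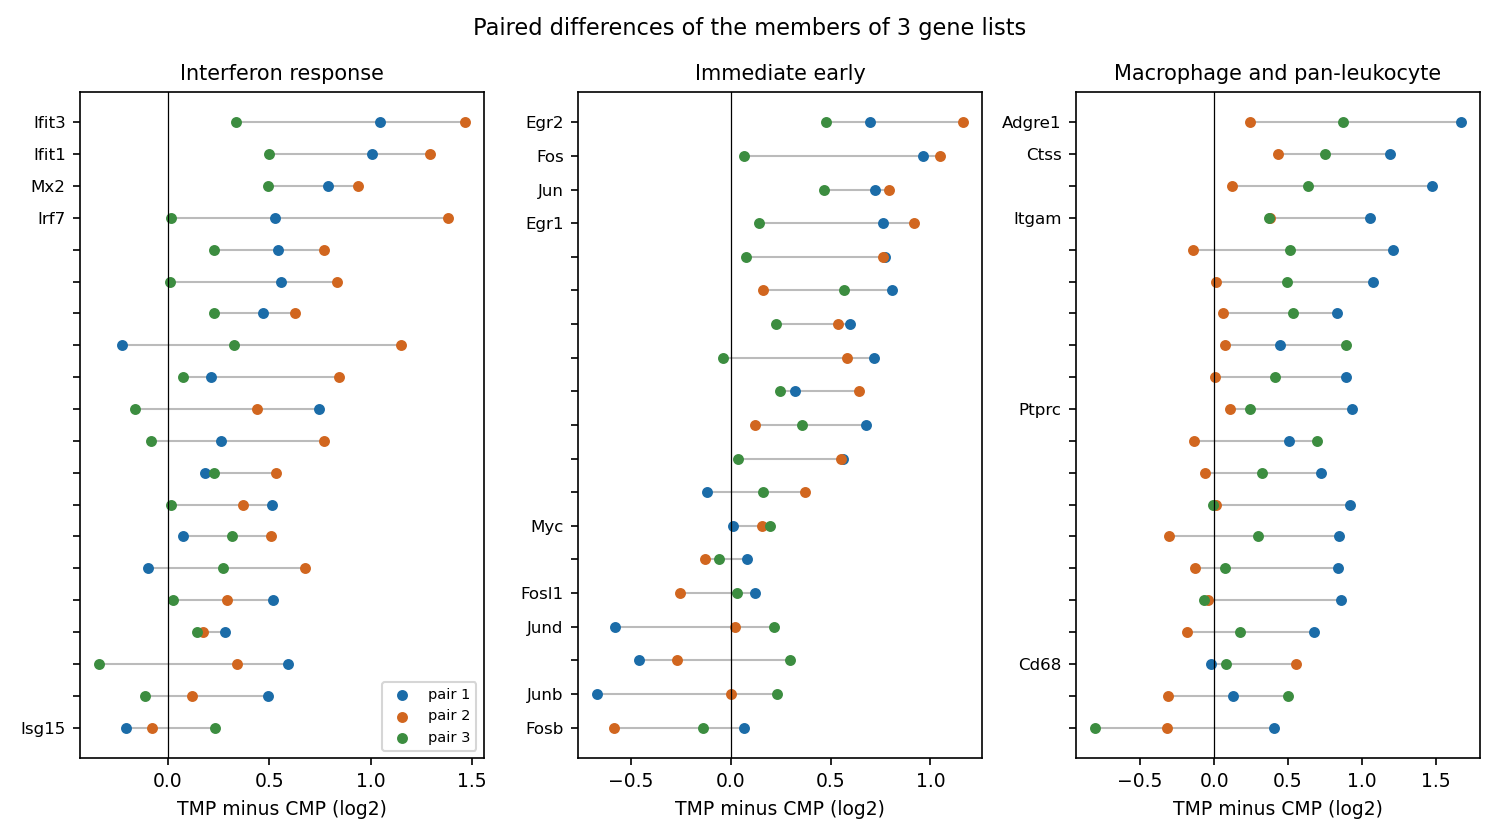
Difference (TMP minus CMP, log2) in the 3 pairs for each measured gene of the interferon response, immediate early and macrophage lists, ordered by the mean difference, with names only for genes given in the text. Pair 3 gives the smallest interferon differences, and pair 2 lies near 0 for most macrophage genes.

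Inflammatory cytokines and chemokines had positive medians in each pair. Of 23 measured, 7 were higher and 3 lower in all pairs, against 15.8% and 11% of all genes. None was called in limma, and 9 were higher and 0 lower at an unadjusted p under 0.05, against 3.64% and 2.99% of all genes. The medians were 0.29, 0.04 and 0.46. Cxcl3, a neutrophil attractant, had levels of 4.53, 5.27 and 3.75 against 5.51, 5.87 and 4.21 (mean difference 0.68, adjusted p = 0.241). Cxcl2 differed by 0.64, 0.36 and 1.35 (adjusted p = 0.228) and Tnf by 0.38, 0.54 and 0.48 (adjusted p = 0.509). Il6 had differences of -0.04, -0.20 and 0.37 and Ptgs2, the inducible cyclooxygenase, of 0.20, 0.04 and -0.01. Of 18 acute phase and epithelial defence genes, 1 was called, Lcn2 (0.0425% of all genes were called higher). In all pairs 7 of the 18 were higher and 1 was lower, against 15.8% and 11% of all genes. At an unadjusted p under 0.05 in limma 5 were higher (3.64% of all genes were), and the medians were 0.17, 0.19 and -0.05. In the same list Cp, the copper carrier ceruloplasmin, differed by 0.40, 0.97 and 0.77 with no overlap (adjusted p = 0.194), while Saa1 and Hp, classical acute phase genes, had mean differences of 0.06 and -0.00.

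Follicular and epithelial genes gave small differences. Of 17 follicular genes 4 were higher and 1 was lower in all pairs, against 15.8% and 11% of all genes. Of the 17, 0 were called in limma and 0 had an unadjusted p under 0.05, with medians of 0.04, 0.10 and 0.07. Tg differed by -0.09, 0.24 and 0.52. Slc5a5, the iodide transporter, differed by 0.29, 0.22 and 0.07 but was well above background on only 2 CMP arrays and 1 TMP array. Tshr, the receptor of thyroid-stimulating hormone, differed by -0.64, 0.16 and -0.06, and Foxe1 by -0.71, 0.41 and 0.93, so these 2 disagreed between pairs. The lineage factors Nkx2-1 and Pax8 differed by 0.20, 0.23 and 0.10 and by -0.10, -0.22 and -0.11. Krt8, a keratin of simple epithelium, and Epcam had mean differences of -0.07 (SE 0.16) and 0.31 (SE 0.18). A p above the threshold does not show that these genes were equal, and on simulated data of this design 21% of 2-fold and 90% of 4-fold changes were called.

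Medians of proliferation and fibroblast genes differed in sign between the pairs. The 30 cell cycle genes had medians of 0.18, -0.09 and -0.24, and 0 were called. In all pairs 1 was higher and 7 were lower, against 15.8% and 11% of all genes. Mki67, a marker of cycling cells, differed by -0.69, -0.68 and 0.06, and Top2a by 0.15, 0.10 and -0.25. The replication genes Mcm3 and Rrm2 were lower in every pair, by -0.39, -0.46 and -0.22 and by -0.56, -0.16 and -0.41, without passing the test (adjusted p = 0.728 and 0.721). The fibroblast genes had medians of 0.32, 0.05 and -0.32, and 16, 12 and 1 of the 19 with all values were higher in pairs 1 to 3. Col1a1, a main collagen of fibroblasts, differed by -0.01, -0.09 and -0.46 and Vim, an intermediate filament gene, by 0.71, 0.26 and -0.13. Endothelial genes had medians of 0.25, 0.20 and -0.01, with Pecam1 at 0.24, 0.19 and -0.03.

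In the lists that follow 0 genes were called in limma. Over all genes, 15.8% were higher and 11% lower in all pairs, and 3.64% were higher at an unadjusted p under 0.05 in limma. Of 21 hypoxia and glycolysis genes 6 were lower and 1 was higher in all pairs: Ldha, which makes lactate, differed by -0.99, -0.36 and -0.29 (adjusted p = 0.479), and Pfkfb3, which activates glycolysis, by 0.60, 0.91 and 0.37 (adjusted p = 0.312). Of 10 measured ABC transporters 5 were higher and 1 was lower in all pairs, among them Abcc3 at 0.77, 0.63 and 0.44 (adjusted p = 0.311). Abcg2, the pump that defines many side populations, differed by -0.08, -0.28 and -0.42 (adjusted p = 0.836). Aldh1a3, a retinoic acid-producing enzyme in the stem and progenitor list, was higher by 0.92, 0.79 and 0.46 (adjusted p = 0.171). Of 20 glutathione and oxidative stress genes 8 were higher and 3 lower in all pairs, with 2 higher at an unadjusted p under 0.05 and medians of 0.10, 0.05 and 0.10. Oxidative phosphorylation genes had medians of -0.01, -0.05 and -0.05 and ribosomal protein genes of 0.02, -0.03 and -0.09. The stress regulator Cdkn1a, Tgfb1 and the C cell hormone gene Calca had mean differences of -0.10, -0.19 and 0.11.

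**Figure D5:**
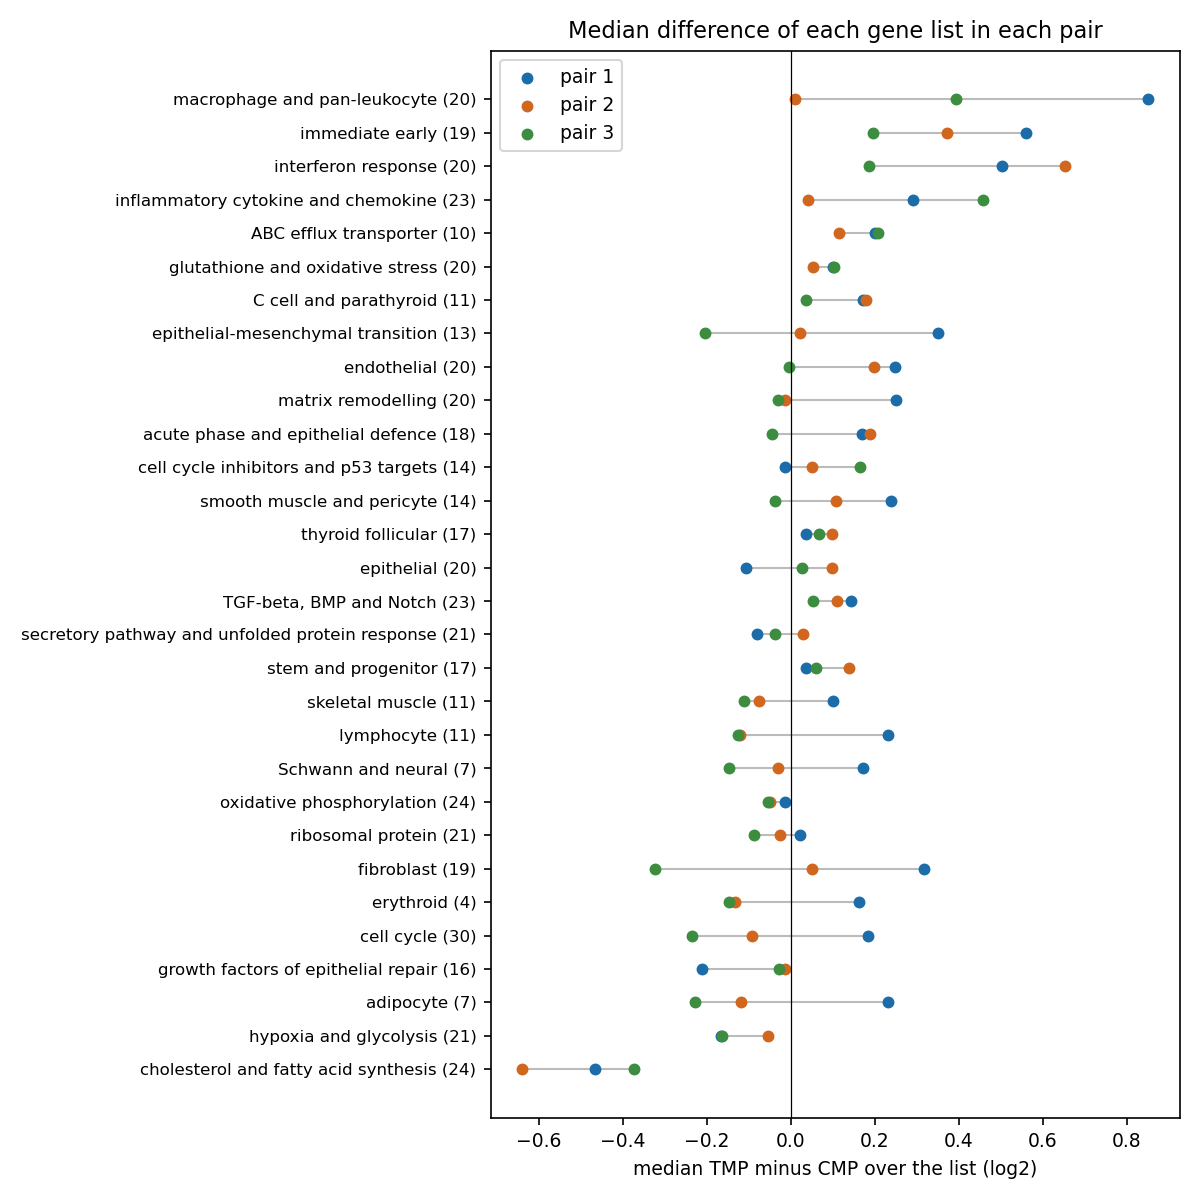
Median difference (TMP minus CMP, log2) over the measured members of each gene list in pairs 1 to 3, ordered by the median of the mean differences, with the number of members with all values in parentheses. The cholesterol list lies lowest in every pair, and the fibroblast and cell cycle lists lie on both sides of 0.

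Some genes differed strongly in a single pair. Xist, the RNA that silences 1 X chromosome in female cells, had levels of -1.19, -4.88 and 0.25 in CMP 1 to 3 and of -1.47, -0.87 and -0.32 in TMP 1 to 3, so its difference was 4.01 in pair 2 and -0.28 and -0.57 in the others. The low value was that of CMP 2. The Y-linked gene Ddx3y had differences of 0.66, 0.21 and 0.46 and Kdm5d of -0.72, -0.00 and 0.61, and both were well above background on all arrays. The labels give both sexes for every sample, and the part of the sex mix in other differences was not tested. Ucma, a cartilage matrix protein, was high on TMP 2 alone (2.67, other arrays -1.59 to -0.63), and Zfp12 on TMP 1 alone (1.02, other arrays -2.21 to -1.53). Crygs and Tsga10ip had their largest differences in pair 2 (-1.89) and pair 3 (1.73), and Kcnh3 had -1.45 in pair 1 and 1.05 in pair 3.

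The same surgery was also compared in the side population, and the difference between the populations was tested as an interaction over all 18 arrays with the slide as a block. Among 18832 genes 0 were called in limma (0%), and 1685 had an unadjusted p under 0.05. The arrays TSP 1 and TSP 2 are labelled as side population. They were taken, from earlier results of these data, to carry a profile of main population cells, which is not shown here. Without TSP 1 and TSP 2, 0 genes were called and 1153 had such a p. BC005655 differed by 0.18 in the side population, or by -0.33 without those arrays, and its interaction was 1.58 (SE 0.45, adjusted p = 0.537). Fabp5 differed by 0.19 and -0.56 in the same way, with an interaction of -1.40 (SE 0.59, adjusted p = 0.553). Without TSP 1 and TSP 2 the interaction in limma was 2.09 for BC005655 (adjusted p = 0.584) and -0.65 for Fabp5 (adjusted p = 0.866). The cholesterol list had a median of 0.48 in the side population, and 0.08 without TSP 1 and TSP 2. None of the called genes was therefore shown to respond differently in the 2 populations.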

How the data were processed

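Gene expression was measured on Agilent two-colour whole mouse genome arrays. The deposited scanner files hold intensity values per spot and channel, per the file headers; Agilent Feature Extraction made them, version 9.5.1.1 per the file headers and 8.5.1.1 per the submitters' processing notes. The authors' deposited series values are log2 ratios whose normalization is not given in the sources used here, and served as an alternative only. Each of the 6 columns used matched its own scanner file best, with correlations of 0.752 to 0.955 and column medians of 0.17 to 0.30.

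Mean signals were background corrected with normexp (offset 50) and normalized by loess within arrays in limma 3.58.1 (R 4.3.3, the data.table package, version 1.17.8). Of 41174 probes, a probe was kept if its Cy5 signal was flagged as well above background on 3 or more of the 6 arrays, and the brightest stood for each gene name. This left 18827 genes that could be tested, 18625 of them with values on all 6 arrays. The other 202 genes lacked a value on an array of a pair, and for them the fit drops that whole pair. Another 5 genes had fewer than 2 complete pairs and were not tested. For 16 genes the filter was passed through 1 group alone. Symbols came from the files, with older names updated through RefSeq (GRCm38.p6), where 22951 probes matched by accession.

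The test was limma's moderated test with the pair as a block, two-sided, with Benjamini-Hochberg adjustment over all genes and an adjusted p under 0.05 as the threshold (residual df 2, prior df 13.8). Samples were paired by replicate number, and equal numbers shared a slide. Deviations from the group means correlated at 0.685, 0.76 and 0.835 for equal numbers, and at 0.0941 or less for unequal ones. Deviations sum to 0 within a group, which lowers the values for unequal numbers. The part of the slide in the values for equal numbers was not tested. Recovery was tested on simulated data of 18625 genes, where 100 genes at each of 2 fold sizes were changed. Noise was drawn independently for each gene and array at the gene's residual SD, with no effect shared by the genes of an array. In the simulation 2 unchanged genes were called, and the shares recovered in the real data may differ. The interaction was fitted over all 18 arrays with the slide as a fixed block.

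Named genes were the called genes (up to 12 per direction), the 12 per direction with the largest difference common to all 3 pairs, 3 per gene list, a fixed set of thyroid, cell type and response genes, and the 6 with the widest range over pairs; of these a selection is described, with further list members for contrast. The comparison, the 30 lists (546 genes written) and the rule were chosen with earlier results of these data known. The 4 added lists (salivary gland, glandular kallikrein, further sterol pathway, and Xist with Y-linked genes) and the 2 promoter patterns were chosen, and the lists shortened, after values were seen. Lists were described by counts and medians, with no test. Some genes, 1 of the called ones among them, are counted but not reported here by name. Promoter sequences came from RefSeq (GRCm38.p6) and probe sequences and mm7 positions from the array design; no genome was used. Python 3.11.15 and matplotlib 3.10.9 drew the figures.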

Additional observations from a re-analysis of the deposited data

How the results depend on the processing

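The count of called genes depended on nearly every choice. Without the pair as a replicate block 0 genes were called higher and 0 lower, and the same held for the fits over all 18 arrays (slide as a fixed block, as a random block, or no block), for 16 arrays without TSP 1 and TSP 2, for the scanner software's processed signals, for median centring and for the authors' log2 ratios. Scaling between arrays gave 2 higher and 0 lower, as did no filter on dim probes. Averaging probes and an intensity trend with robust priors each gave 5 higher and 1 lower. No background correction gave 23 higher and 9 lower, and a filter for all 6 arrays gave 17 higher and 9 lower. Leaving out a pair gave 28 to 115 higher and 4 to 141 lower. Leaving out a single array, which was run without the replicate block, gave 0 higher and 0 lower each time, as did the unblocked fit of all 6. Leaving out a pair, which asks for 2 signs in place of 3, gave 8037 to 10689 genes with 1 sign. With 1 pair left out the fits rest on 1 residual degree of freedom and on the prior.

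The called genes kept their direction under all alternatives in which they had a value. BC005655 and LOC671351 were called in 9 of 23 alternatives, Dcpp1 and Dcpp2 in 7 of 23, Spink8 and Fabp5 in 8 of 24, Irg1 in 6 and Lcn2 in 5. Among other genes with 1 sign in all pairs, Cxcl3 was -0.055 with processed signals and Pax8 was 0.11 with the authors' log2 ratios; the cause was not tested. With a pair left out Pax8, Cdkn1a and Ddx3y kept their sign. With a single array left out and no block, Pax8 ranged from -0.50 to 0.19, Cdkn1a from -0.38 to 0.18 and Ddx3y from -0.060 to 0.94; Pax8 was also 0.10 without TMP 3 and Cdkn1a 0.15 without CMP 3. The median of the cholesterol list stayed between -0.62 and -0.33, that of the interferon list between 0.23 and 0.51 and that of the macrophage list between 0.20 and 0.68. Of the cholesterol genes 0 to 6 were called lower, with 6 when pair 3 was left out. The interaction gave 0 calls under each alternative, with 187 genes at an unadjusted p under 0.05 without a block and 1766 with the filter over all 18 arrays. The dim probes of pair 3, where 45.8% and 51.2% of spots were well above background, limit what can be seen in low genes.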
